A study of Mus musculus with 2 samples.

Results

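Long-read transcript models were followed in gastrocnemius, the large calf muscle, of mice. The subject was the set of transcript models whose introns match only the 5' part of a longer model of the same gene. TALON, the program named in the deposited annotation, calls such a model an incomplete splice match of the prefix kind, and here it is called a 5'-part model. The members were the rows with that class and a mouse gene identifier. There were 2025 of them among the 85714 models of replicate 1 and 1929 among the 92049 models of replicate 2, out of 177763 models in all. Joined by gene and intron chain, which is the ordered list of intron coordinates, they formed 3395 structures, of which 559 were found in both libraries.

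Both libraries belonged to a single group. The mice were females of strain B6CASTF1/J aged 2 months, labelled as a B6Cast F1 cross, with no treatment named. The library called replicate 1 is labelled with animal number 3, the one called replicate 2 with animal number 4, and each used 2 µg of RNA. One donor identifier stands on both, so their origin in 2 animals rests on the animal numbers alone. With 1 group, no comparison between conditions was possible. Values are given per library or as mean ± SD with n = 2, and tests on reads compare these 2 libraries and not mice as a population.

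The deposited tables held 1349298 and 1359923 reads. Skeletal muscle markers (7 of 7 found, Acta1, Ckm and Atp2a1 among them) took 29.0% and 28.7% of the reads. Fat cell markers (5 of 5 found) held 1351 reads in replicate 1 and 91 in replicate 2, and Schwann cell markers (4 of 4) held 832 and 120. Endothelial markers held 71 and 57 reads, and blood markers 189 and 188. In bulk tissue, fewer cells of a type and less RNA per cell cannot be told apart. The 4 lists other than muscle held 4 and 1 of the 5'-part reads. Whether the difference in fat and Schwann cell RNA, or that in Myh7 reads given below, had a part in any result was not tested.

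A messenger RNA normally ends where the cleavage machinery meets a polyadenylation signal, usually AATAAA or ATTAAA in DNA letters, in the last exon. When a signal inside an intron is used before that intron is removed, the transcript ends early and the protein loses its C-terminal part. The U1 small nuclear ribonucleoprotein is known to restrain such use. A short 5' part can also arise when a late intron is kept, since the remaining splice sites then match only the start of the annotated chain. In long-read libraries primed with oligo(dT), priming on a genomic run of A inside the transcript gives ends of a further kind.

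The ends below are shown because they carry the main contrasts of the set, with coordinates of mouse build mm10 and bases read from the GENCODE M21 transcripts. In the first group, 30 bases up to the deposited end are given, with the polyadenylation signal nearest the end in capitals.

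Atp2a1, minus strand, chr7:126445858-126445887: tttattgaaAATAAAtgacagaaaagtctg

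Pdlim7, minus strand, chr13:55506773-55506802: agcatggaAATAAAcattctcggccctgct

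Lrp6, minus strand, chr6:134540774-134540803: taaagcttatacaATTAAAaaatataaaaa

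Sik3, plus strand, chr9:46202856-46202885: agggaagttgaAATAAAatggttttcatgg

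Ankrd11, minus strand, chr8:122897020-122897049: atgtaaatgaaaataAATAAAccagcttac

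Caprin1, minus strand, chr2:103767107-103767136: cactcAATAAAtacttgttgaatgaatgaa

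Ccdc47, minus strand, chr11:106197983-106198012: tacacagtaggtgaataAATAAAtgtgttg

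In the second group the model ends with the last lower-case base, and the 20 genome bases that follow it are in capitals. Neither of these ends had a signal in its last 50 bases. The Son window lies wholly within coding sequence.

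Son, plus strand, chr16:91654660-91654719: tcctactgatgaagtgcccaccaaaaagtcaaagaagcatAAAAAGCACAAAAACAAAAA

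Zfp106, minus strand, chr2:120533489-120533518: ttacccaggtGTGTGCCTCTCATACCTGTC

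The first group ended 13 to 25 bases after the start of a signal. Son ended just before a run with 16 A among 20 bases. Zfp106 ended at the edge of an exon, where the intron begins.

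The 5'-part models were few. They made up 2.36% of the models of replicate 1 (95% Wilson interval 2.26 to 2.47) and 2.10% of replicate 2 (2.01 to 2.19), which is 2.23 ± 0.189% (SD, n = 2). Their 5692 and 5486 reads were 0.422% and 0.403% of each library, or 0.413 ± 0.0130% (SD, n = 2). The 3'-part models, whose introns match only the 3' part of a longer model, were 18475 and 17805 in number. They took 6.09% and 6.75% of the reads. A single read carried 75.2 ± 0.316% (SD, n = 2) of the 5'-part models, against 64.7 ± 0.736% of the 3'-part models. A 5'-part model had a median of 7 exons in each library and a median length of 2276 and 2499 bases. Protein-coding genes held 96.9% and 96.8% of them. Intervals cover counting error only, since reads without molecular identifiers are not independent molecules.

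The starts of these models sat on annotated starts, while their ends fell into separate kinds. The start coincided to the base with an annotated start of the gene in 93.8% and 92.4% of models. It lay 1 to 300 bases away in only 4 and 7 models, so the spread of reads around an annotated start cannot be seen either. The end coincided to the base with an annotated end in 939 and 918 models, lay 1 to 300 bases away in 25 and 28, and lay further away in the rest. In the 3'-part models 88.5% and 89.0% of ends coincided with an annotated end. Ends 1 to 300 bases away were nearly missing in both kinds, so the spread of single reads around an annotated end cannot be seen in these files. Each model also holds a single end whatever its number of reads.

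**Figure D1:**
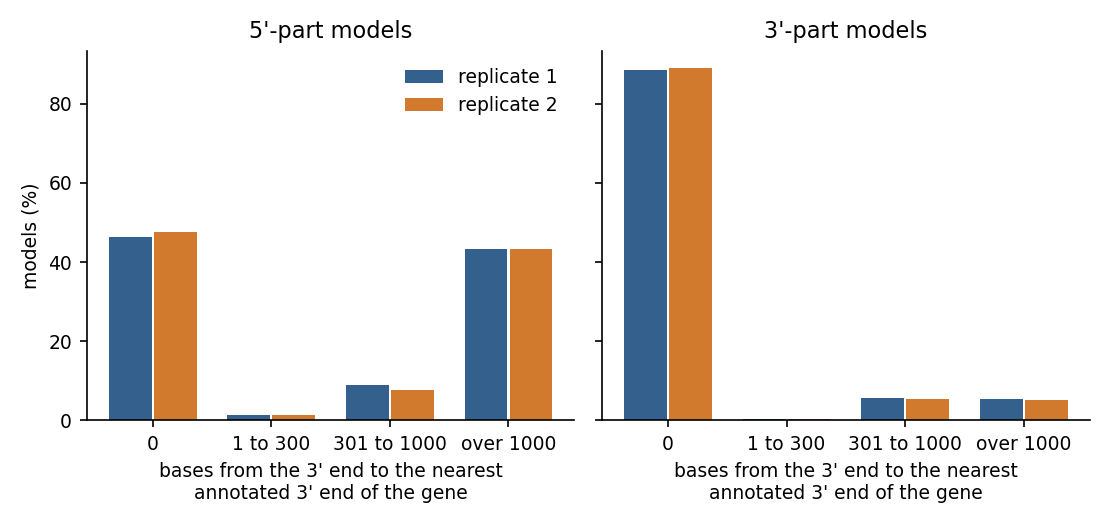
Distance in bases from the 3' end of each model to the nearest annotated 3' end of its gene, as a percentage of models in 4 distance classes, for 5'-part models (left) and 3'-part models (right) in replicate 1 (blue) and replicate 2 (orange). The class of 1 to 300 bases is nearly empty, with 25 and 28 of the 5'-part models, between the exact matches and the ends further than 300 bases away.

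Placed against the annotated transcripts that begin with the same introns, the ends split into 4 kinds. An end in the last matched exon, with up to 10 bases allowed past its edge, held 12.6% (11.8 to 13.5) and 9.28% (8.54 to 10.1) of the 5'-part reads. An end in the next intron held 18.2% (17.3 to 19.3) and 18.7% (17.7 to 19.7). An end past the next intron, so that the intron is retained in the last exon, held 18.2% (17.2 to 19.2) and 18.7% (17.7 to 19.8). The other 51.0% and 53.3% belonged to 543 and 571 models whose longer match was an unannotated model of the same library. Counted by models instead of reads, the exon kind was 20.0 ± 3.32%, the intron kind 26.3 ± 0.223%, the kind past the intron 25.5 ± 1.13% and the unannotated kind 28.2 ± 1.97% (SD, n = 2). With unannotated longer models included, the exon kind held 22.0%, the intron kind 38.2% and the kind past the intron 39.8% of reads.

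Ends in introns and ends past them differed in how much of the gene they kept, which their definition partly sets. An end in the last matched exon or the next intron lies before the parent's later exons. An end past the intron lies beyond the start of the next exon, though further exons of the parent can still follow. Of the 500 and 507 models ending past the intron, 347 and 351 lacked only the parent's last intron. Among models with an annotated coding parent, the stop codon was missing in 95.8% and 96.3% of those ending in the exon and in 96.0% and 95.0% of those ending in the next intron. Of those ending past the intron, 16.4% and 13.0% lacked it. The median share of coding bases kept was 61.1% and 62.5% for exon ends, 65.9% and 68.2% for intron ends, and 100% for ends past the intron. The median share of the parent's introns kept was 57.1% and 54.5%, 60% and 61.0%, and 80% in both libraries, in the same order.

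Ends at an annotated end of the same gene, within 50 bases, were also spread unevenly. They made up 18.3% and 14.1% of exon ends, 34.6% and 32.9% of intron ends and 78.8% and 79.3% of ends past the intron. Over all 5'-part models this was 46.6% and 47.7% of models, or 59.9 ± 1.81% of reads (SD, n = 2). The annotated transcripts ending there included a protein-coding one for 41.0% and 41.1% of the intron ends, and were retained-intron transcripts alone for 44.3% and 39.3%. For ends past the intron the protein-coding share was 85.3% and 85.6%. Annotated transcripts tagged as having no mapped 3' end were the sole match for 3.82% and 2.06% of all ends at an annotated end.

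Exon ends were mostly exact exon edges. Of the 453 and 341 models of that kind, 316 and 244 ended on the last base of the exon, 69.8% and 71.6%. Intron ends began further out, with a median of 794 and 915 bases past the exon edge, in introns of median length 3560 and 3808 bases. More than 100 and up to 1000 bases past the edge lay 55.6% and 51.4% of the 529 and 510 models, and 41.0% and 46.1% lay further out, up to 10000 bases. An annotated exon of another transcript covered 40.1% and 40% of the intron ends. Of the ends past the intron, 82.4% and 80.9% spanned exactly 1 intron and 63.2% and 60.2% ended at the parent's own annotated end. Where several transcripts matched in the same place, the parent was the one with the nearest end, so this agreement is partly built in.

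**Figure D2:**
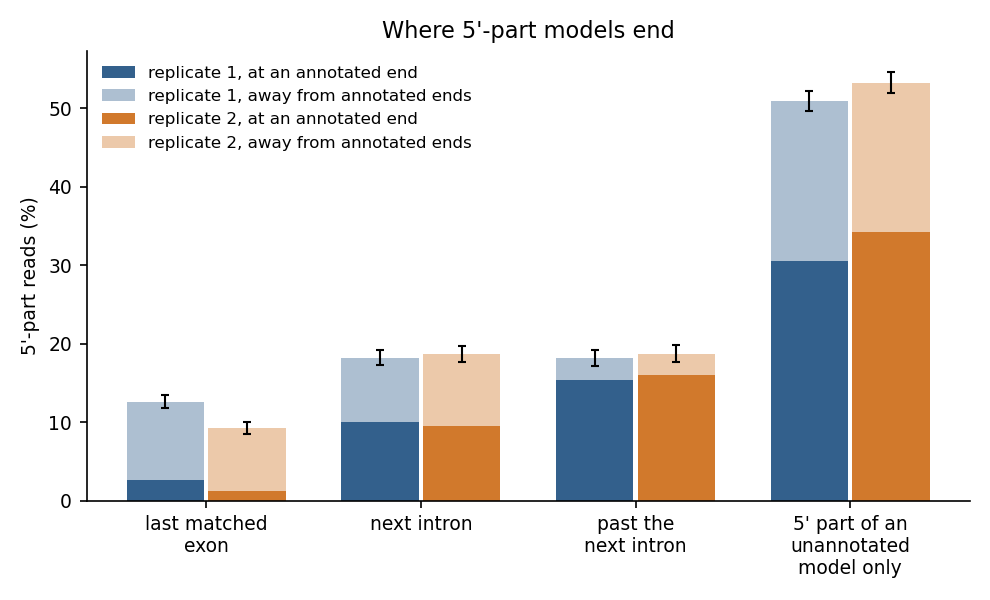
Percentage of 5'-part reads by the place of the model's 3' end, in replicate 1 (blue) and replicate 2 (orange), with dark parts for ends within 50 bases of an annotated end of the gene and pale parts for other ends. Bars show each library's share with its 95% Wilson interval, and ends past the next intron were mostly dark while ends in the last matched exon were mostly pale.

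Most structures were seen in a single library, and these were thinly read. Of the structures of each library, 27.6% and 29.0% were 5'-part models in the other as well, and these carried 60.1% and 64.7% of the 5'-part reads. A further 75 and 73 structures were present in the other library under another class, and carried 11.7% and 8.55% of the reads. The remaining 1391 and 1297 were absent from the other library, 88.5% and 90.1% of them with 1 read and none with more than 7 and 9 reads. Among structures with at least 5 reads, 109 of 129 in replicate 1 were 5'-part models in replicate 2 and 17 more were there under another class.

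An end was called recurring when its structure had at least 5 reads in each library and the deposited ends lay within 50 bases. Of 70 structures with that many reads, 63 met this, in 52 genes, and 55 of them had the same end to the base. They held 33.5% and 37.4% of the 5'-part reads. At annotated ends stood 48 of them and away from annotated ends 15, of which 9 were identical. By place, 6 ended in the last matched exon, 17 in the next intron, 17 past it, and 23 were 5' parts of unannotated models alone. Over all 559 shared structures, ends away from annotated ends in both libraries came within 50 bases in 168 of 228 cases (73.7%), 126 of them identical. Ends at an annotated end in both libraries did so in 260 of 284 cases. In the remaining 47 the end was at an annotated end in a single library. Of these, 0 came within 50 bases, and the median gap was 1241 bases. The grouping and the lack of ends close to an annotated end nearly fixed that count in advance. Ends close to an annotated end but not on it were nearly missing in both libraries. Agreement at annotated ends, among the 63 and among the 284, therefore cannot show how closely the reads themselves ended. Whether the deposited ends there were set by the annotation was not tested.

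**Figure D3:**
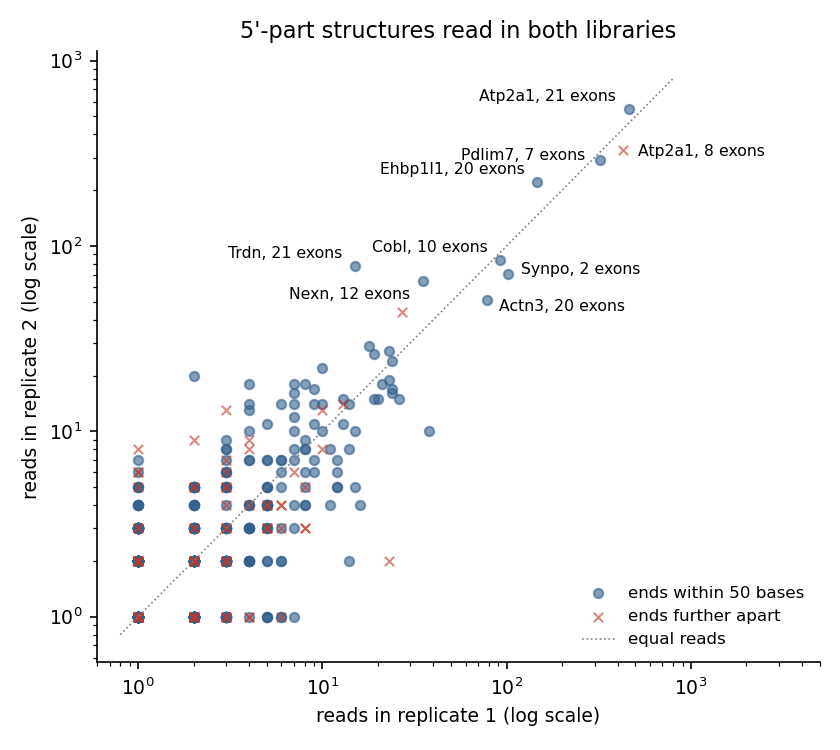
Reads in replicate 1 (x axis, log scale) against reads in replicate 2 (y axis, log scale) for the 559 5'-part structures read in both libraries, as blue circles where the ends lay within 50 bases and red crosses where they lay further apart. The structure of Atp2a1 with 21 exons had 460 and 549 reads, and the one with 8 exons, a cross, had 430 and 330 reads.

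Of the 17 recurring ends in an intron of an annotated transcript, 15 lay at an annotated end. The most read was in Synpo, an actin-associated protein, with 102 and 71 reads, 55.7% and 44.9% of the gene's reads. It ended in the second intron after 681 of 901 codons of the parent, at the end of annotated protein-coding transcripts of the gene. Lrp6, a coreceptor of Wnt ligands, had a 2-exon structure with 19 and 26 reads, 57.6% and 51.0% of its reads. That structure ended 878 bases into an intron of 21058 bases and held 149 of 1613 codons, at the end of an annotated retained-intron transcript.

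Sik3, a salt-inducible kinase, ended after 14 exons with 24 and 17 reads, 58.5% and 47.2% of the gene, and kept 600 of 1319 codons. Ankrd11, a chromatin-associated regulator, kept 248 of 2643 codons in a 7-exon structure with 19 and 15 reads, 32.2% and 29.4%. Both ended where an annotated protein-coding transcript of the gene ends. The kinase Clk2, which phosphorylates splicing factors, had 2 structures with 1 shared end, with 9 and 11 and with 11 and 8 reads.

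Some structures with intron ends covered most of the parent's codons. The 3 given here each ended where an annotated protein-coding transcript of the gene ends. Slc25a23, a mitochondrial carrier of ATP-Mg and phosphate, had 24 and 16 reads, 58.5% and 66.7% of the gene, and kept 406 of 467 codons. Caprin1, an RNA-binding protein of stress granules, kept 686 of 707 codons with 10 and 22 reads, 13.9% and 23.4%. Gprc5c, a G protein-coupled receptor, kept 431 of 441 codons with 10 and 14 reads, 26.3% and 31.8%. These shares were higher in replicate 2, and none of the 3 genes was called as different between the libraries in the Fisher's exact tests reported for all genes.

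Further intron ends were smaller. Tle1, a Groucho-family corepressor, kept 202 of 780 codons with 12 and 5 reads, 22.2% and 14.3% of the gene. Its end was that of an annotated protein-coding transcript. Zfp106, a zinc-finger protein, had an intron end at position 120526263 of chromosome 2 with 7 and 10 reads and 1244 of 1888 codons. The non-coding gene Gm10605 had 15 and 10 reads and Fam78a had 7 and 7. Art1, an ADP-ribosyltransferase of muscle, had 10 and 10 reads at an end 418 bases into an intron and 8 and 9 at an end 50 bases into another. Both Art1 structures and that of Fam78a covered the stop codon of the parent.

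Rhot1 and Tiparp had the 2 recurring intron ends away from any annotated end. Rhot1, a mitochondrial GTPase for organelle transport, had 5 and 11 reads, ends 3 bases apart 1507 bases into an intron, and 633 of 672 codons. Tiparp, a mono-ADP-ribosyltransferase, had 8 and 5 reads with identical ends at position 65533056 of chromosome 3, 872 bases into an intron of 14022 bases, and 306 of 657 codons. No annotated exon of either gene covered the end, so no bases there could be read.

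**Figure D4:**
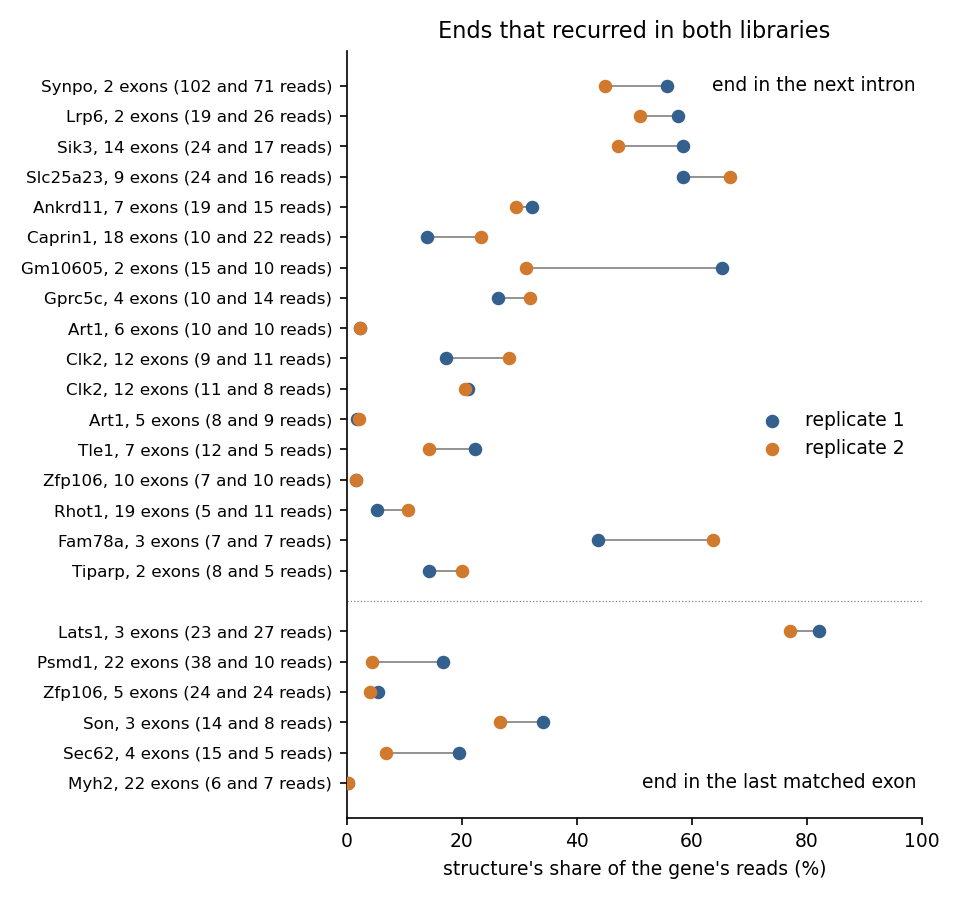
Each recurring structure's share of its gene's reads (x axis, %) in replicate 1 (blue) and replicate 2 (orange), for the 17 ends in the next intron above the dotted line and the 6 in the last matched exon below it. Lats1 had 82.1% and 77.1% in an exon-ending structure, while Myh2 had 0.219% and 0.244%.

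The 6 recurring exon ends differed in the bases around them. Lats1, a kinase of the Hippo pathway, had 23 of 28 and 27 of 35 reads in a 3-exon structure ending on the last base of the third exon at position 7697649 of chromosome 10. It held 165 of 1129 codons, and the model stopped 15937 bases before the nearest annotated end. Sec62, part of the protein translocation complex of the endoplasmic reticulum, ended on an exon's last base as well, with 15 and 5 reads and 152 of 398 codons. Zfp106 had 24 and 24 reads in a 5-exon structure with ends 2 bases apart at the exon edge shown above, and 827 of 1888 codons.

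Son and Psmd1 ended inside exons. Son, a nuclear speckle protein of splicing, had 14 and 8 reads, 34.1% and 26.7% of the gene, with an identical end 5881 bases before the edge of the third exon. It kept 111 of 2126 codons. Psmd1, a subunit of the proteasome's regulatory particle, had 38 and 10 reads, 16.7% and 4.41% of the gene, and kept 839 of 953 codons. Its end was also an annotated end, of transcripts of the nonsense-mediated decay and retained-intron types. The A-rich bases after the Son end are printed above.

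The 17 recurring ends past a retained intron all covered the parent's stop codon. Whether the retained intron breaks the reading frame was not examined. Actn3, the alpha-actinin of fast fibres, had 78 and 51 reads, 0.715% and 0.597% of its 10905 and 8538 reads, with an intron of 81 bases kept and all 900 codons of the parent covered. Myot, a Z-disc protein, had 23 and 19 reads with 496 of 496 codons. Mbd3, a subunit of the NuRD complex, had 26 and 15 and 14 and 14 reads in 2 structures that kept an intron of 76 bases. Mlf2 had 21 and 18 reads and Dab2ip, a Ras GTPase-activating protein, 20 and 15. The retained introns of these 5 genes were 76 to 982 bases long and each model ended at an annotated protein-coding end.

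Of the 17 recurring ends of this kind, 16 were at an annotated end. The exception was Ccdc47, a chaperone component of the endoplasmic reticulum, with 7 and 14 reads and an identical end 575 bases before the annotated one. Its end lay 13 bases after the start of an AATAAA and preceded 10 A among 20 bases.

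The most read structures of all were 5' parts of unannotated models. Atp2a1, the calcium pump of fast-fibre sarcoplasmic reticulum, held 980 and 977 5'-part reads in 40 and 34 models, 0.486% and 0.502% of its 201493 and 194599 reads. Its top structure, with 21 exons and 460 and 549 reads, kept an intron of 418 bases and ended at the end of the annotated coding transcripts. The second structure had 8 exons and 430 and 330 reads, ended 7626 bases before the annotated end in replicate 1, and had an end 1157 bases away in replicate 2, so it was not called recurring. The other structures with 5 reads per library and ends further apart were in Phf10 (27 and 44 reads, 2724 bases apart), Luc7l2, Fam120aos, Hcfc2, Cog5 and Cops7a.

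Pdlim7, a PDZ and LIM protein of the Z-disc, had 82.1% and 84.7% of its reads in 5'-part models, the highest pooled share of the genes with 20 or more reads per library. A 7-exon structure carried 321 of 397 and 290 of 346 of its reads and ended 46 bases past an exon edge, at the end of annotated coding transcripts. Ehbp1l1, an EH domain-binding protein, had 147 and 220 reads in a 20-exon structure, 32.3% and 38.6% of the gene. Nexn, an actin-binding Z-disc protein, had 35 and 65 reads in 1 of 3 recurring structures, each with an intron of 85 bases kept. Ccpg1, an endoplasmic reticulum membrane protein, had 18 and 29 reads in a 10-exon structure, 10.8% and 18.2% of the gene.

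Cobl and Trdn ended far from any annotated end. Cobl, an actin nucleator, had 92 of 130 and 84 of 117 reads in 1 structure of 10 exons, whose ends at position 12295012 of chromosome 11 lay 32 bases apart and 1351 bases from an annotated end. Trdn, the junctional protein triadin that anchors calsequestrin near the calcium release channel, had 15 and 78 reads in a 21-exon structure. The 2 ends were 2 bases apart near position 33368353 of chromosome 10, 33339 bases past the nearest annotated end and 4331 bases into an intron of 34358 bases. Replicate 2 had a second structure of 28 reads at the same end, which replicate 1 held under another class with 6 reads.

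Smaller recurring ends of this kind were away from the annotated ends of their own gene too. Kcnma1, the large-conductance potassium channel, had 8 of 19 and 18 of 41 reads. Pde4dip, or myomegalin, a Golgi and centrosome protein, had 7 and 12 reads at ends 9776 bases past an annotated one. Bmp1, a procollagen proteinase, had 5 and 5 reads at an identical end, and Gm2004, whose sequence is near-identical to other genes, 5 and 7. The 5'-part structure of Stub1, a ubiquitin ligase, had 8 and 6 reads and ended at position 25834465 of chromosome 17. That is the annotated end of a protein-coding transcript of the neighbouring gene Rhbdl1, whose recurring structure, with 13 and 11 reads, ended there as well.

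The 10 genes with the highest pooled share were Pdlim7, Lats1, Cobl, Slc25a23, Gm10605, Med14, Lrp6, Phf10, Sik3 and Synpo, from 83.3% down to 50.7%. Their shares in the 2 libraries were close for Cobl, 70.8% and 71.8%, and apart for Med14, a Mediator subunit, with 65.4% and 41.7% of only 26 and 24 reads. Of the genes with that depth, 1325 had a 5'-part read; their median pooled share was 1.06%, and 60 of them reached 10%. Of 2167 genes with any 5'-part read, 614 had one in both libraries, and 25 genes held 46.5% of these reads.

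Shares ranged widely between the gene lists. Thick and thin filament genes (21 of 25 with a 5'-part read) had 0.0992% and 0.0919% of their reads in such models, against 0.444% and 0.424% over all genes. Glycolysis and glycogen genes (11 of 17) had 0.0511% and 0.0513%, and oxidative phosphorylation genes (8 of 18) 0.0516% and 0.0352%. Matrix genes (2 of 13) had 0.0259% and 0.0257%. Calcium handling genes (11 of 17) had 0.477% and 0.543%, nearly all from Atp2a1 and Trdn. Of the very long muscle genes, 7 of 13 had a 5'-part read. The medians over genes with 20 reads in each library were 0.155% for filament, 0.108% for calcium handling, 0.0656% for glycolysis and 0.252% for very long genes, and 0% for oxidative phosphorylation and matrix genes, beside 0% over all 5025 such genes.

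The myosin heavy chains, the motors of the thick filament, had few 5'-part reads: 14 and 15 in Myh1, 8 and 11 in Myh2, 16 and 15 in Myh4, and 1 and 9 in Myh7. In the same order, all reads of these genes were 8519 and 10134, 2742 and 2865, 12708 and 16318, and 422 and 4414. The 5'-part share of Myh7 was thus 0.237% and 0.204%. The structures given here were picked after their values were seen and hold only some of the 5'-part reads. Myh2 had 6 and 7 reads in a structure of 22 exons ending on an exon's last base after 900 of 1942 codons. Myh1 had 2 and 3 reads in a structure of 22 exons that also ended on an exon edge after 900 of 1942 codons, and 3 and 2 reads after 25 exons and 1088 codons. Myh4 had 4 and 2 reads after 22 exons and 5 and 1 reads after 25 exons, each at an exon edge. These genes are near-identical in places, so reads could be split between them, and the counts per end were small. Mybpc2, a myosin-binding protein, had 5 and 4 reads in a 19-exon structure with identical ends and 729 of 1136 codons.

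Neb, Ttn and Ryr1 are the members of the very long muscle gene list given here. Neb, the thin filament ruler nebulin, had 27 of 196 and 19 of 225 reads in 17 and 10 models, none with more than 3 and 5 reads. Its most read structure of 9 exons ended at the same base of an intron in both libraries. Ttn, the giant spring titin, had 18 of 381 and 5 of 471 reads. Ryr1, the calcium release channel, had 5 of 1078 and 7 of 961. Jph1, of the calcium handling list, ties the sarcoplasmic reticulum to the surface membrane. It had 5 and 4 reads ending 1 base apart in an intron after 379 of 660 codons.

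Lists of RNA-processing genes and receptors held few 5'-part reads in number. Cleavage and polyadenylation genes (4 of 21 with a 5'-part read) had 5 and 2 reads in all, 0.921% and 0.337%. The U1 particle list (2 of 7) had 8.85% and 6.96%, with a median of 1% over 3 genes. Of its reads, 16 of 17 and 16 of 16 were from Luc7l2, a U1-associated splicing protein, 29.6% of 54 and 21.3% of 75 reads. Luc7l2 ended in an intron after 333 codons with 13 and 14 reads, at places 1735 bases apart. Receptors known for soluble forms (4 of 7) had 5 and 2 reads, 1.74% and 0.676%, with 4 and 0 of them in Ghr, the growth hormone receptor. Splicing regulators (4 of 16) had 11 and 8 reads, 1.11% and 0.702%, with 6 and 4 of them in Srsf2, a serine-arginine splicing factor.

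The 5'-part share of each gene's reads was then set against the other library's in 2-sided Fisher's exact tests, adjusted by Benjamini-Hochberg over the 5025 genes with 20 reads or more in both. At an adjusted p under 0.05, 9 genes (0.179%) were called, 5 with a higher share in replicate 2 and 4 with a lower one, and 37 had an unadjusted p under 0.05. Tmem65, a mitochondrial membrane protein, had 262 of 346 reads in the first library and 3 of 459 in the second (adjusted p = 7.99e-128 by Fisher's exact test). Suds3, of the Sin3 corepressor, had 119 of 167 and 0 of 155. Agpat3, a phospholipid acyltransferase, had 52 of 151 and 1 of 194, and Clip4, a microtubule-binding protein, 9.02% and 55.4%. Lsm6 of the U6 particle had 0 of 97 and 43 of 144, and Trafd1 had 0 of 86 and 22 of 63. Without Tmem65, the adjusted p of these genes lay between 9.18e-46 and 3.37e-07 by Fisher's exact test.

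For the 6 genes just named, the structure that carried the difference was present in the other library under another class. The main Tmem65 structure had 260 reads as a 5'-part model in replicate 1 and 338 reads in replicate 2 as a model with an unannotated splice site. The Suds3 structure had 119 and 102. A structure is a 5' part only when its own library holds a longer match for it. When each structure was counted under any class once it was a 5' part in either library, 0 of 5025 genes (0%) were called, 24 had an unadjusted p under 0.05, and the smallest adjusted p of Fisher's exact test was 0.295. Tmem65 then had 75.7% and 74.3%, Suds3 71.3% and 65.8%, and Agpat3 34.4% and 33.0%. Lsm6 had 18.6% and 29.9%, and the direction turned for Clip4, with 67.7% and 60.4%, and Trafd1, with 59.3% and 34.9%.

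Trdn and Psmd1 were called on the original labels with smaller differences. Trdn had 5.54% and 12.2% of its reads in 5'-part models (adjusted p = 8.02e-04, Fisher's exact test), and 7.10% and 12.4% under any class, where the adjusted p was 0.625. With models that are both a 5' and a 3' part included, its direction turned, to 56.8% and 29.8% (adjusted p = 4.03e-28, Fisher's exact test). Psmd1 had 16.7% and 4.85% (adjusted p = 0.0328, Fisher's exact test) with the same reads under any class, where its adjusted p was 0.295. Over genes with at least 10 reads summed over the libraries its adjusted p was 0.0609.

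Among ends with known bases, polyadenylation signals were common before ends at annotated positions and rarer elsewhere. AATAAA or ATTAAA, searched on the gene's strand only, stood in the last 50 spliced bases of 69.1% (66.1 to 72.0) and 72.8% (69.8 to 75.5) of 5'-part models at an annotated end. Away from annotated ends the share was 12.8% (10.3 to 15.7) and 17.1% (14.1 to 20.6) of the 587 and 503 models with known bases. Weighted by reads it was 33.9% and 21.7%. Ends in the last matched exon made up 365 and 291 of those models. Annotated spliced models had 71.6% and 71.8%, and 3'-part models away from annotated ends 59.5% and 58.3%. In a window of the same length 100 bases further upstream, the 5'-part shares were 6.75% and 6.70% at annotated ends and 2.61% and 3.46% away from them.

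The share also differed by the place of the end, and the places differed in how many ends lay at an annotated end. Ends in the last matched exon had a signal in 8.95% and 9.73%, ends in the next intron in 58.1% and 67.2%, and ends past the intron in 76.3% and 78.9% of models whose bases were known. Bases were known for 54.3% and 49.9% of the ends away from annotated ends and for only 10.4% and 9.06% of such ends in introns, since they came from annotated transcripts. Where they were known, 47.2% of 36 and 48.4% of 31 such intron ends had a signal. Of ends past the intron and away from annotated ends, 30.2% of 43 and 44.4% of 45 had one. For exon ends away from annotated ends this was 8.77% of 365 and 9.97% of 291. Among the 63 recurring ends, 43 of 48 at an annotated end had one. In 39 of these the signal began 10 to 30 bases before the end. Of the 8 with known bases away from their own gene's annotated ends, 2 had one. These 2 were Ccdc47 and Stub1, whose end is an annotated end of Rhbdl1.

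**Figure D5:**
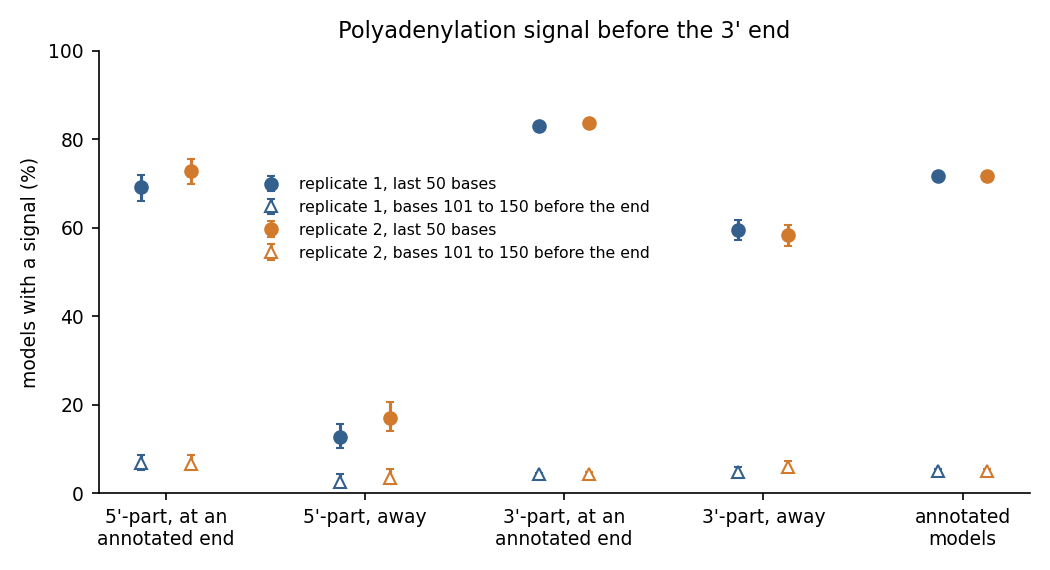
Percentage of models with AATAAA or ATTAAA in the last 50 spliced bases (filled circles) or in the 50 bases that lie 100 bases further upstream (open triangles), for 5'-part, 3'-part and annotated spliced models in replicate 1 (blue) and replicate 2 (orange), with 95% Wilson intervals. Only models with known bases were counted. The 5'-part models at an annotated end had 69.1% and 72.8%, and those away from annotated ends 12.8% and 17.1%.

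Bases after the end were known for fewer models. At least 50% A in the next 20 bases followed 17.3% (14.4 to 20.6) and 14.2% (11.6 to 17.4) of the 5'-part ends with known bases, which were 561 and 548 models. Annotated spliced models had 10.1% and 9.62%, and 3'-part models 11.7% and 11.4%. Exon ends had the most, 31.9% of 141 and 23.7% of 114. Away from annotated ends the exon ends had 18.2% of 77 and 16.7% of 78, and the intron ends more, 21.4% of 28 and 23.7% of 38. Ends past the intron there had 15.7% of 70 and 13.2% of 68, and the unannotated kind 14.8% of 61 and 9.62% of 52. Of the recurring ends with known following bases, 1 of 13 at an annotated end and 2 of 4 away from one, Son and Ccdc47, were A-rich. These shares are descriptions of the models with known bases, and priming within the transcript was not tested.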

How the data were processed

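Both gastrocnemius libraries of long-read RNA sequencing were analysed as 1 group. Build mm10 and annotation GENCODE M21 are named in the deposited notes, which derive each library's annotation from that library's own alignments. The deposited counts are whole numbers of reads per transcript model, and no scaling by the authors is recorded. Coordinates and lengths are deposited in bases. No aligner, platform or read filter was named in the sources used. All 141862 transcripts of the M21 reference matched the deposited annotation in start, end and strand, so their coordinates were used together.

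Models were joined by gene and intron chain. Ends were placed against annotated transcripts that begin with the same introns, allowing 10 bases past an exon edge. Among several matches, an exon place came before an intron place, and that before a place past the intron. The parent was then the transcript with the nearest 3' end. Intron and codon shares refer to that parent. Codons count its coding bases covered by the model, and no reading frame or protein was examined. Each gene's share was compared by Fisher's exact test with Benjamini-Hochberg adjustment, which was tested on simulated data first. There, 24 of 100 genes with a share of 5% against 10% were called, and 87 of 100 with 5% against 20%. Of 4825 unchanged genes, 0 were called. The changed genes had at least 100 reads in each library, so differences of such size in genes with fewer reads could also go uncalled. Python 3.11.15, NumPy 2.4.6, SciPy 1.17.1 and Matplotlib 3.10.9 were used. Sequence was planned from a genome, and none was used here, so bases came from 141767 M21 transcripts laid on their exons, and bases outside annotated exons were unknown. Wilson intervals are at 95%.

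The members, gene lists and tests were chosen with earlier results of these data known. The naming rule took the 25 genes with the most 5'-part reads, the 15 most read recurring ends in introns, 10 in exons and 5 past an intron, the 10 most read at annotated ends, the 10 highest shares, the called genes and up to 4 members of each list; of these, some are given only as counts. Cobl, Kcnma1, Pde4dip, Bmp1, Stub1, Rhbdl1, Ccdc47, Gm2004, Mybpc2, Jph1, the further myosin ends and the structures with separate ends were named after their values were seen, where the rule did not take them. One gene called in the test of shares stays in the counts and is not reported here by name.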

Additional observations from a re-analysis of the deposited data

Results flagged for a closer look

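5'-part models outside annotated genes, which entered no comparison, held 21 reads in 12 models of replicate 1 and 8 reads in 7 models of replicate 2. Both totals were above the 3 reads that a count of 0 allows, which is why they are listed. There was no control library to set them against.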

How the results depend on the processing

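With models that are both a 5' and a 3' part included, 5'-part reads were 0.555% and models 2.51%; with models of 2 or more reads they were 0.315% and 1.39%. Structures shared by both libraries fell to 361 when the 3' end was part of the match. Weighted by models, the exon, intron, past-intron and unannotated-parent kinds were 20.0%, 26.3%, 25.5% and 28.2%. With unannotated parents included, a choice made after seeing the data, the first 3 were 22.0%, 38.2% and 39.8%. With no bases allowed past the edge, the intron kind was 18.8%. Recurring ends numbered 178 at 2 reads per library and 27 at 10 reads, and 15 lay over 300 bases from annotated ends (chosen after seeing the data). Genes called for a different share were 0 when structures counted under any class, an alternative also chosen after seeing the data, and 8 to 13 under the other settings. The difference in points turned to -7.27 for Clip4 and -24.4 for Trafd1 under any class, and to -27.0 for Trdn with both-part models included. Among models with known bases, the share with a signal was 41.4% for AATAAA alone, 69.9% weighted by reads and 14.9% away from annotated ends. A-rich ends were 10.9% at a share of 0.6, 8.47% at 0.7 and 9.34% weighted by reads. Leaving out either library gave 0.403% to 0.422% of reads, 2.10% to 2.36% of models, 9.28% to 12.6% exon, 18.2% to 18.7% intron, 18.2% to 18.7% past the intron, 51.0% to 53.3% unannotated, 47.3% to 53.0% with a signal and 14.2% to 17.3% A-rich. The causes of these changes were not tested. No paired analysis was possible because there was 1 group. Most models rest on a single read.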
